A study of Mus musculus with 24 samples.

Results

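The genes described here are the immediate early genes of neuronal activity: *Fos*, *Fosb*, *Junb*, *Arc*, *Egr1*, *Egr2*, *Egr3*, *Egr4*, *Npas4* and *Nr4a1*. They were chosen by name, and their probes are those whose transcript identifier belongs to 1 of these symbols, which gave 14 of the 56605 probes and 10 of the 23787 genes measured. The tissue is the hippocampus of 48 male Swiss-Webster mice, 12 weeks old. Treated mice drank corticosterone (100 µg/ml) dissolved with 0.45% hydroxypropyl-β-cyclodextrin, and control mice drank the same vehicle, through the 12 hours of darkness in which mice are active. On the following day 8 control and 8 treated mice were killed during the first, 8 and 8 during the fifth, and 8 and 8 during the ninth hour of light, after the bottles had been given at the end of the previous light phase. Each array compared RNA of 1 control mouse (Cy3) with RNA of 1 treated mouse (Cy5) of the same hour, and the dyes were never exchanged.

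Immediate early genes are transcribed within minutes of synaptic activity, from factors that already sit in the cell, and need no new protein for it. Calcium entering through glutamate receptors and voltage-gated channels activates kinases that act on CREB, on SRF with its ternary complex partners, and on MEF2, and these factors switch the genes on. Most of their products are transcription factors (AP-1, EGR, NPAS4 and NR4A proteins), while ARC acts at synapses, and the transcripts of most of them last only for a short time. In the hippocampus they mark recently active neurons, and their level follows waking, exploration and stress.

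Marker genes of the tissue were looked at. All 8 region markers of hippocampal neurons (*Prox1*, *Wfs1*, *Neurod6*, *Grik4*, *Spink8*, *Dsp*, *Fibcd1* and *C1ql2*) gave a signal above background in some channel. The markers measured for thalamus and cortex, choroid plexus and blood did so too, so this does not test the tissue label. The summed intensity of the 8 region markers, to which *Neurod6* contributed most, lay between 28516 and 32175 (median 31236, n = 8) in control mice of the first hour. In control mice of the ninth hour the median was 30004 (n = 8), inside that range. Of the 6 general neuron markers, 0 were called between hours in either treatment. In these comparisons 0.00530 to 0.537% of all probes were called in control and 0.546 to 4.02% in treated mice. In whole tissue, fewer active neurons and less transcript per neuron cannot be told apart.

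Because the levels of several of these genes were correlated from mouse to mouse, their promoters were searched for the motifs of CREB, SRF, AP-1, EGR and NR4A proteins and of the glucocorticoid receptor; motifs of MEF2 and NPAS4 were not searched. The search covered 7 of the 10 genes in RefSeq's promoter table (build GRCm38.p6): *Fos*, *Fosb*, *Junb*, *Egr2* (5 start sites), *Egr4*, *Npas4* and *Nr4a1*. The promoters of *Arc*, *Egr1* and *Egr3* were not searched, so the counts below do not cover them. The window was the 250 bases before the start, and both strands were searched. The core of the cAMP response element, TGACG, occurs in 17.8% of the 32851 promoters in the table and in at least 1 start site of each of the 7 genes. The whole element, TGACGTCA, occurs in 1.55% of all promoters and in 0 of the 7 genes. A CArG box, the motif that SRF binds, occurs in 1.47% of all promoters and in 1 of the 7 genes, *Egr2*. The EGR motif GCGNGGGCG occurs in 4.7% of promoters, and here in *Fosb* and *Nr4a1*. The AP-1 motif TGANTCA (6.75% of promoters) and the NBRE AAAGGTCA bound by NR4A proteins (1.34%) were in 0 of the 7 genes, and the glucocorticoid motif ACANNNTGT (5.84%) in 1, *Egr4*. No match overlaps one of another motif. These are matches of letters, not shown to be bound sites.

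Printed below are 4 genes whose levels were correlated between mice, with limits given further down (*Fos*, *Junb*, *Egr2* and *Nr4a1*), and 2 that were higher with corticosterone at the ninth hour (*Fosb* and *Npas4*). Each sequence is given 5′ to 3′ on the strand of its gene, from 250 bases before the start up to the start, with capitals at the motif matches. The *Fos* window is chr12:85473640-85473889 (plus strand), that of *Junb* chr8:84978749-84978998 (minus strand) and that of *Nr4a1* chr15:101266596-101266845 (plus strand). For *Egr2* the window of the third start is shown, chr10:67537619-67537868 (plus strand), the first of 3 windows that hold both a CArG box and the TGACG core. *Fosb* lies at chr7:19310046-19310295 and *Npas4* at chr19:4989972-4990221, both on the minus strand. *Fos* holds 2 cores, 1 of them ending 62 bases before the start. *Nr4a1* holds 4 cores and 1 EGR motif, and *Npas4* holds 2 cores, on opposite strands.
Fos: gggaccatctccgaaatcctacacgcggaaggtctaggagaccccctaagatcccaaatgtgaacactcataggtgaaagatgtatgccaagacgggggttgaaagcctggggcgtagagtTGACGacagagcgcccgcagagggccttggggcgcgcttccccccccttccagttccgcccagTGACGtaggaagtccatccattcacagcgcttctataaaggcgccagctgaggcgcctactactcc
Junb: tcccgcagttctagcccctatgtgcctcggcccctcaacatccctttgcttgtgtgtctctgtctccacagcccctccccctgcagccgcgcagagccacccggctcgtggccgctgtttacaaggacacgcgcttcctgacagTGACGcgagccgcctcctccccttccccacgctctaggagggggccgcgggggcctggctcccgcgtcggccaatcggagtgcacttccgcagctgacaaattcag
Egr2: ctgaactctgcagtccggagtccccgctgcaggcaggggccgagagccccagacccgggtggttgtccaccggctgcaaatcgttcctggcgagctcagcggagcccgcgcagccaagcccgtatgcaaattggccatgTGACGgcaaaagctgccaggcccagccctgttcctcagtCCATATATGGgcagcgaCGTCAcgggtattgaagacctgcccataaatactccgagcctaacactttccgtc
Nr4a1: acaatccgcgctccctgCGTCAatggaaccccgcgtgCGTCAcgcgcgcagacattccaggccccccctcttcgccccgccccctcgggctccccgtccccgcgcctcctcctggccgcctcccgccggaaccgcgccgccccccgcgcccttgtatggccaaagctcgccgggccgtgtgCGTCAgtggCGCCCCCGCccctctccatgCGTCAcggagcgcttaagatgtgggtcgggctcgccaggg
Fosb: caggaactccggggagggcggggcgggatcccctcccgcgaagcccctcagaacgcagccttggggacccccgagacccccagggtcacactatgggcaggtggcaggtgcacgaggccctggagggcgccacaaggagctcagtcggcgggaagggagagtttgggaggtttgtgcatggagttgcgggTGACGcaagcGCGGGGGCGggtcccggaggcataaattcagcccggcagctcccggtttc
Npas4: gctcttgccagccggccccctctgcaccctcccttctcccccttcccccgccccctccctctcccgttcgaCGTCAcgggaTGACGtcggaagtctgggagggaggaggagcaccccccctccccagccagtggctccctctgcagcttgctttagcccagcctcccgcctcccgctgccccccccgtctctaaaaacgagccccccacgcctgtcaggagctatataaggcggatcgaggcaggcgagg

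Each gene is described by its brightest probe, which was well above background in 48 of 48 channels for all 10 genes. Intensity is the normalized signal of a mouse in its channel, without offset, and it depends on the probe as well as on the transcript, so that levels are compared within a gene only. A gene is called changed where the adjusted p of limma, over all 56605 probes, is under 0.05. Of the further probes, the second *Egr3* probe (A_52_P440836) was above background in 48 channels and the second *Junb* probe (A_55_P2011106) in 47. The third *Egr3* probe (A_51_P437198) was in 12 and the second *Fosb* probe (A_55_P2744102) in 0 channels.

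**Figure D1:**
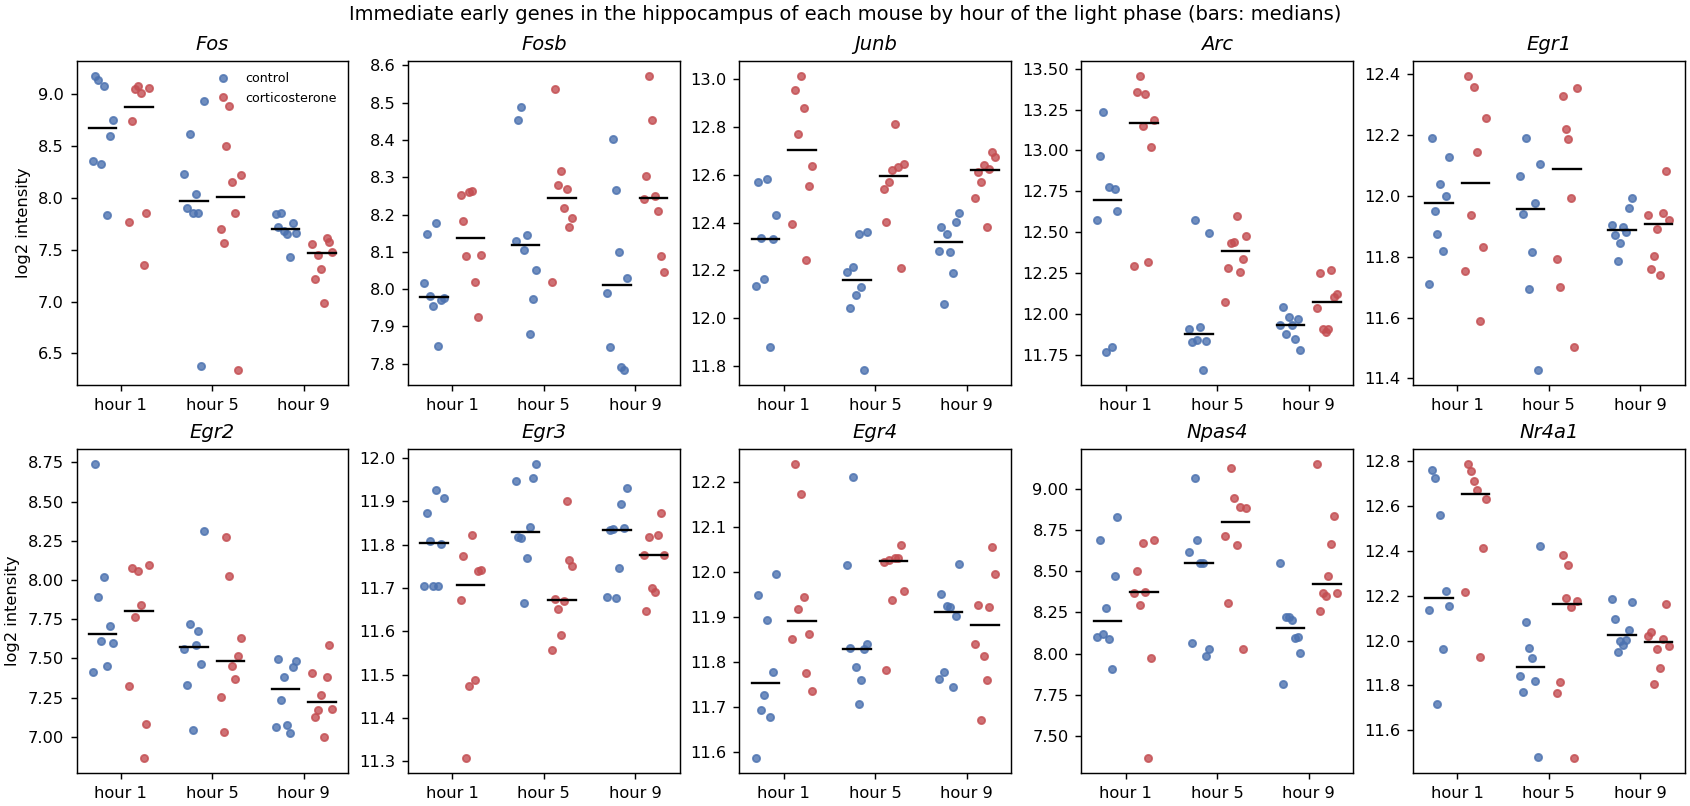
Log2 intensity of each of the 10 genes in each mouse, by hour of light and treatment, with the median of each group of 8.

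*Arc* encodes a protein of the postsynaptic density that takes part in the removal of AMPA receptors from synapses. In corticosterone-treated mice its intensity was 5025 at the lowest, 9203 at the median and 11246 at the highest (n = 8) in the first hour. It was 4299, 5346 and 6199 in the fifth and 3792, 4298 and 4937 in the ninth hour (n = 8 each). The lowest mouse of the first hour lies above the highest of the ninth, so these 2 groups do not overlap, while the fifth hour overlaps both. Compared with the first hour, the log2 fold change of *Arc* was -0.96 at the ninth (adjusted p = 2.8e-05, SE 0.157, 8 of 8 mice below each mouse of the first hour), and -0.66 at the fifth (adjusted p = 0.0231). The fall to the ninth hour was -0.81, -1.23 and -0.73 within slides 1, 2 and 3, and -0.94 (adjusted p = 4.9e-05) with slide as a block. In control mice of the first hour the values ran from 3485 through a median of 6635 to 9633, and in those of the ninth hour from 3516 through 3909 to 4209 (n = 8 each). Here 6 of the 8 mice of the first hour lie far above the range of the ninth hour and 2 lie within or below it. Within the slides this difference was -0.81, -0.70 and -0.52, and the call was lost without 7 of the 24 arrays, with adjusted p between 0.0038 and 0.114. Those were replicates 2, 3, 5 and 7 of the first and 3, 4 and 8 of the ninth hour (adjusted p 0.0891, 0.114, 0.0573, 0.0836, 0.0615, 0.0579 and 0.0724). It was also lost without slide 1, 2 or 3 (0.642, 0.0757 and 0.0931) and with the control channels fitted alone (0.0841).

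The fall of *Arc* from the first to the ninth hour in treated mice was called without each array (adjusted p up to 1.4e-04) and without each slide. That to the fifth hour was lost without 5 arrays, replicate 1 of the fifth (adjusted p = 0.0604) and 2, 3, 5 and 8 of the first hour (0.0581, 0.0593, 0.0641 and 0.0665). It was lost without slide 1, 2 or 3 too (0.159, 0.24 and 0.189).

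*Fos* encodes the c-FOS subunit of AP-1. In treated mice its intensity ranged from 164 to 542 (median 471, n = 8) in the first, from 80.9 to 472 (median 258, n = 8) in the fifth and from 127 to 196 (median 177, n = 8) in the ninth hour. In the first hour 7 of the 8 treated mice lie above all treated mice of the ninth hour, and the lowest lies inside their range. Compared with the first hour, its log2 fold change was -1.09 at the ninth (adjusted p = 0.0039, SE 0.259), and -0.87, -1.75 and -0.56 within the slides. It was kept without each of the 24 arrays (adjusted p 4.1e-04 to 0.0145) and lost without slide 1 (-1.15, adjusted p = 0.14) and without slide 2 (-0.72, adjusted p = 0.221). In control mice the range was 229 to 579 (median 408) in the first, 83.5 to 488 (median 251) in the fifth and 173 to 231 (median 208) in the ninth hour (n = 8 each). Here too 7 of the 8 mice of the first hour lie above the ninth hour's range, and only the lowest falls at its top. That difference was -0.99, -1.31 and -0.69 within the slides and -0.95 (adjusted p = 0.0449) with slide as a block, close to the threshold. The call was kept without 7 of the 24 arrays, replicates 1, 4 and 6 of the first hour and 3, 4, 7 and 8 of the fifth (lowest adjusted p 0.00967). It was lost without each of the other 17, where adjusted p reached 0.131, without slide 1 (adjusted p = 0.711) and without slide 2 (0.187).

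*Nr4a1* encodes an orphan nuclear receptor. Treated mice had intensities from 3894 to 7075 (median 6437, n = 8) in the first, from 2846 to 5344 (median 4587, n = 8) in the fifth and from 3581 to 4592 (median 4075, n = 8) in the ninth hour. In the first hour 7 of the 8 treated mice lie above the whole range of the ninth, and the lowest lies inside it. At the ninth hour the log2 fold change against the first was -0.53 (SE 0.126, adjusted p = 0.0042), and -0.55, -0.77 and -0.25 within the slides, or -0.52 with slide as a block (adjusted p = 0.0058). It was kept without each array (adjusted p 5.8e-04 to 0.0134), and lost without slide 1 (-0.51, adjusted p = 0.183) and without slide 2 (-0.40, adjusted p = 0.133). From the first to the fifth hour the change was -0.48 with an adjusted p of 0.04996, a call that was lost without 19 of the 24 arrays (adjusted p up to 0.144). It was kept without replicates 1 and 6 of the first hour and 3, 5 and 8 of the fifth (lowest adjusted p 0.0105). In control mice the median was 4667 in the first and 4169 in the ninth hour (log2 fold change -0.22, adjusted p = 0.54).

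Across the 10 genes, 3 were called in treated mice between the first and the ninth hour (*Fos*, *Arc* and *Nr4a1*, all lower; 5 at an unadjusted p under 0.05), while 4.02% of all probes were called there and 14.7% had an unadjusted p under 0.05. In control mice the same comparison called 2 (*Fos* and *Arc*, both lower; 3 at an unadjusted p under 0.05, the third being *Egr2*), beside 0.537 and 10.2% of all probes. Without regard to sign, the median log2 fold change of the 10 genes there was 0.21 in treated and 0.12 in control mice, against 0.09 and 0.08 over probes with an intensity of 50 or more. Between the first and the fifth hour 2 genes were called in treated mice (*Arc* and *Nr4a1*, lower; 4 at an unadjusted p under 0.05; 0.546 and 9.53% of probes). In control mice limma called 0 genes there (3 at an unadjusted p under 0.05; 0.00530 and 7.2% of probes) and 0 when the control channels were fitted alone. Between the fifth and the ninth hour limma called 0 genes in control mice (0 at an unadjusted p under 0.05; 0.0336 and 6.34% of probes) and 0 in treated mice (1 at an unadjusted p under 0.05; 0.661 and 10.3% of probes). Fits of the channels of 1 treatment alone also called 0 in both, as did fits with slide as a block in these 3 comparisons.

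The other genes were not called between hours. *Egr2*, which encodes a zinc finger factor of the EGR family, had a log2 fold change of -0.53 in control (adjusted p = 0.187) and -0.38 in treated mice (adjusted p = 0.294) from the first to the ninth hour, and -0.78, -0.79 and -0.12 in control mice within the slides. *Egr1* changed by -0.07 and -0.15, *Junb* by -0.01 and -0.09 and *Egr4* by 0.09 and -0.06 in the 2 treatments. *Egr3* changed by 0.00 and 0.14 and *Fosb* by 0.02 and 0.13. *Npas4*, which encodes a factor induced by calcium entry in neurons, changed by -0.16 in control mice and by 0.28 in treated mice (adjusted p = 0.815 and 0.406).

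The comparison of treated with control mice is made on the same arrays, but the treated mouse always carried Cy5, so an effect of the dye on a probe and an effect of corticosterone cannot be told apart in it. In the first hour 3 of the 10 genes were called (*Junb* and *Arc* higher, *Egr3* lower; 5 at an unadjusted p under 0.05), beside 17.5% of all probes called and 31.1% at an unadjusted p under 0.05. In the fifth hour 2 were called (*Junb* higher, *Egr3* lower; 3 at an unadjusted p under 0.05), beside 18.1 and 31.2% of all probes. In the ninth hour 3 were called (*Fosb*, *Junb* and *Npas4*, all higher; 3 at an unadjusted p under 0.05), beside 14 and 27.9% of all probes.

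**Figure D2:**
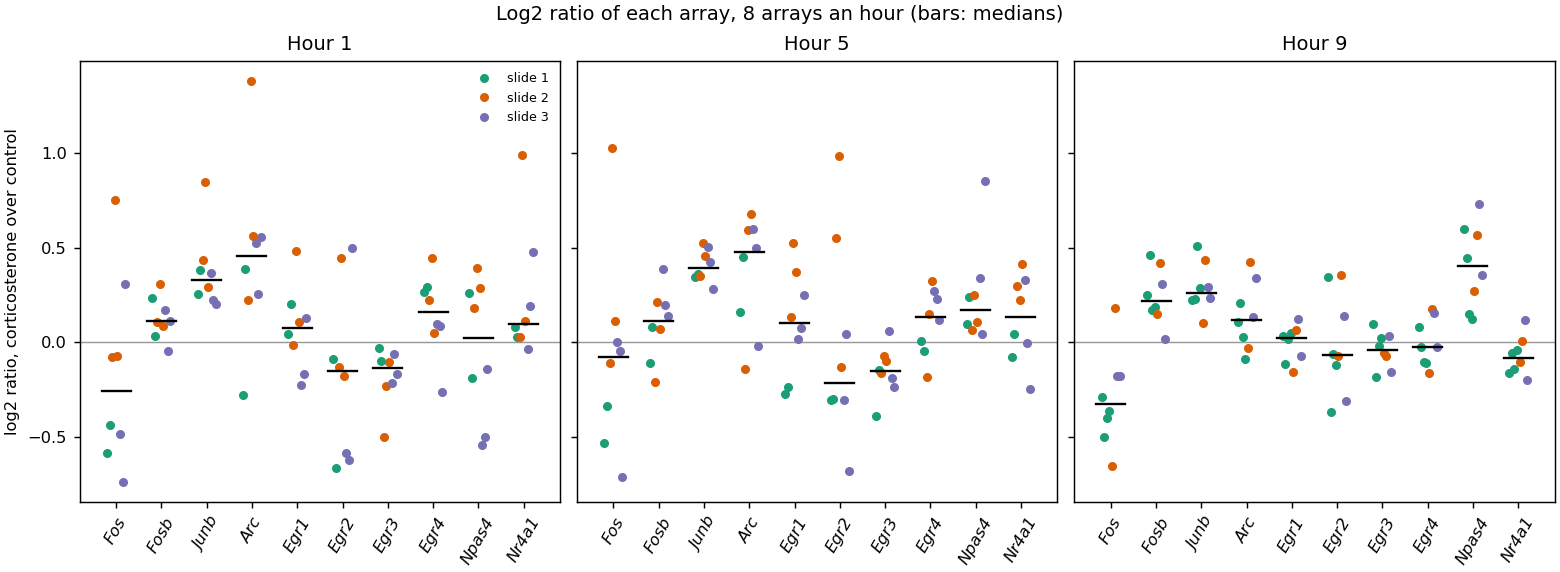
Log2 ratio of the treated over the control mouse on each of the 8 arrays of an hour, coloured by slide, with the median of the hour.

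*Junb* encodes a JUN protein that pairs with FOS proteins in AP-1. Control mice had intensities from 3766 to 6137 (median 5158), from 3526 to 5261 (median 4583) and from 4265 to 5553 (median 5104) in the first, the fifth and the ninth hour (n = 8 each). Treated mice had 4853 to 8267 (median 6669), 4738 to 7187 (median 6187) and 5341 to 6625 (median 6285; n = 8 each). The groups overlap in each hour, but on each array the treated mouse is the higher one, 8 of 8 at each hour. This gave log2 fold changes of 0.38, 0.41 and 0.29 in turn (adjusted p = 2.6e-04, 9.4e-05 and 0.0059; SE 0.0779). Within the slides they ran from 0.26 to 0.53 in the first, from 0.35 to 0.45 in the fifth and from 0.26 to 0.31 in the ninth hour, and *Junb* was called without each array at each hour. Without slide 1 the ninth hour was no longer called (0.27, adjusted p = 0.181). The second, dim *Junb* probe was not called, with log2 fold changes of 0.27, 0.21 and 0.09 in the 3 hours (adjusted p = 0.166, 0.239 and 0.705) and the treated mouse higher on 7, 5 and 6 of 8 arrays.

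*Arc* was called in the first hour only. Its values in control and treated mice, given above, overlap widely there, and the treated mouse was higher on 7 of 8 arrays. The log2 fold change was 0.45 (SE 0.135, adjusted p = 0.0115) in the first, 0.35 (adjusted p = 0.0508) in the fifth and 0.14 (adjusted p = 0.517) in the ninth hour. In the fifth hour control mice had intensities from 3224 to 6102 (median 3757, n = 8), of which 2 lie among the treated mice and 6 below all of them. Within slides the first hour gave 0.05, 0.72 and 0.45, and the array of replicate 4 had the highest log2 ratio. Without that array the fold change was 0.32 (adjusted p = 0.0824), without slide 2 it was 0.29 (adjusted p = 0.223) and without slide 3 it was 0.46 (adjusted p = 0.0863), none of them called. Over the 24 arrays left out in turn, adjusted p ran from 0.00268 to 0.0824.

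*Egr3* encodes another EGR factor and was the 1 gene of the 10 that was called lower in treated mice. Its intensity ran from 3338 to 3889 (median 3578) in control and from 2534 to 3623 (median 3344) in treated mice in the first hour, and from 3248 to 4059 (median 3640.4) and from 3014 to 3827 (median 3265) in the fifth (n = 8 each). The treated mouse was the lower on 8 of 8 arrays in the first and on 7 of 8 in the fifth hour, although the groups overlap. Log2 fold changes came to -0.18 (SE 0.0515, adjusted p = 0.0081) and -0.15 (adjusted p = 0.0203), and -0.04 in the ninth hour (adjusted p = 0.622). The second *Egr3* probe gave -0.32 (adjusted p = 9.3e-05) and -0.26 (adjusted p = 0.0012) on the same arrays, lower on 8 and on 7 of 8. The third probe, near background, was not called and had 0.43 in the ninth hour (adjusted p = 0.0602). The first call was lost without replicate 3 of the first hour (-0.13, adjusted p = 0.0531) and without slide 2 (-0.12, adjusted p = 0.2). The second was lost without replicates 1 and 8 of the fifth hour (-0.12 and -0.14, adjusted p = 0.103 and 0.0566) and without slides 1 and 3 (-0.12 and -0.17, adjusted p = 0.195 and 0.0865).

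*Fosb* and *Npas4* were called in the ninth hour, when *Fos* and *Arc* were at their lowest medians in treated mice. *Fosb*, whose truncated product ΔFOSB is long-lived, had intensities from 220.2 to 339 (median 258, n = 8) in control and from 264 to 381 (median 303, n = 8) in treated mice. The groups overlap, and the treated mouse was higher on 8 of 8 arrays. The log2 fold change was 0.24 (SE 0.0709, adjusted p = 0.0115), and 0.27, 0.28 and 0.16 within the slides. It was lost without replicate 2 of the ninth hour (0.21, adjusted p = 0.0502), without slide 1 (0.22, adjusted p = 0.123) and without slide 2 (0.23, adjusted p = 0.0857).

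*Npas4* ran from 225 to 375 (median 285, n = 8) in control and from 306 to 568 (median 343, n = 8) in treated mice of the ninth hour. Again the treated mouse was higher on 8 of 8 arrays, as it was in the fifth hour (8 of 8), where the log2 fold change of 0.25 was not called (adjusted p = 0.184). In the ninth hour it was 0.41 (SE 0.136, adjusted p = 0.0311), and 0.33, 0.42 and 0.54 within the slides. The call was lost without 5 of the 24 arrays, replicates 1, 2, 6, 7 and 8 of the ninth hour (adjusted p 0.064, 0.058, 0.0738, 0.0962 and 0.0524), and without slide 1, 2 or 3 (adjusted p 0.158, 0.115 and 0.0701). In the first hour the treated mouse was higher on 4 of 8 arrays, with a log2 fold change of -0.03.

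The remaining genes were not called in any hour. *Fos* was lower in the treated mouse on 6, 5 and 7 of 8 arrays (log2 fold changes -0.17, -0.07 and -0.30; adjusted p = 0.643, 0.85 and 0.413). *Nr4a1* (0.24 in the first hour, adjusted p = 0.107) and *Egr4* (0.15, adjusted p = 0.065) were each higher on 7 of 8 arrays in the first hour. *Egr1* ranged from -0.01 to 0.11 and *Egr2* from -0.17 to -0.01 over the 3 hours.

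Whether the effect of corticosterone differed between hours was tested directly, in comparisons in which a constant dye effect cancels. Limma called 0 of the 10 genes between the first and the fifth hour (0 at an unadjusted p under 0.05; 0.0389 and 4.47% of probes). From first to ninth it called 0 (2 at an unadjusted p under 0.05, *Npas4* and *Nr4a1*; 0.827 and 7.16% of probes). Between the fifth and the ninth hour it called 0 (0 at an unadjusted p under 0.05; 0.0830 and 5.18% of probes). With slide as a block the counts were 0, 0 and 0. The *Npas4* effect rose by 0.44 (SE 0.193, adjusted p = 0.553) and those of *Nr4a1* and *Arc* changed by -0.31 each (adjusted p = 0.645 and 0.82) from the first to the ninth hour. A difference between the hours at which these genes were called is therefore not shown.

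The SD between the 8 mice of a group was computed on log2 intensities with an offset of 50. Its median over the 10 genes in control mice was 0.256 in the first, 0.256 in the fifth and 0.101 in the ninth hour. In treated mice it was 0.299, 0.245 and 0.135. Over the 32033 probes with an intensity of 50 or more, the median SD was 0.115, 0.147 and 0.114 in control and 0.130, 0.142 and 0.110 in treated mice. The SD was smaller in the ninth hour than in the first for 8 of 10 genes in control mice (not for *Fosb* and *Egr3*) and for 9 of 10 in treated mice (not for *Fosb*), against 51.1 and 63.5% of the 31982 probes of that intensity without missing values.

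**Figure D3:**
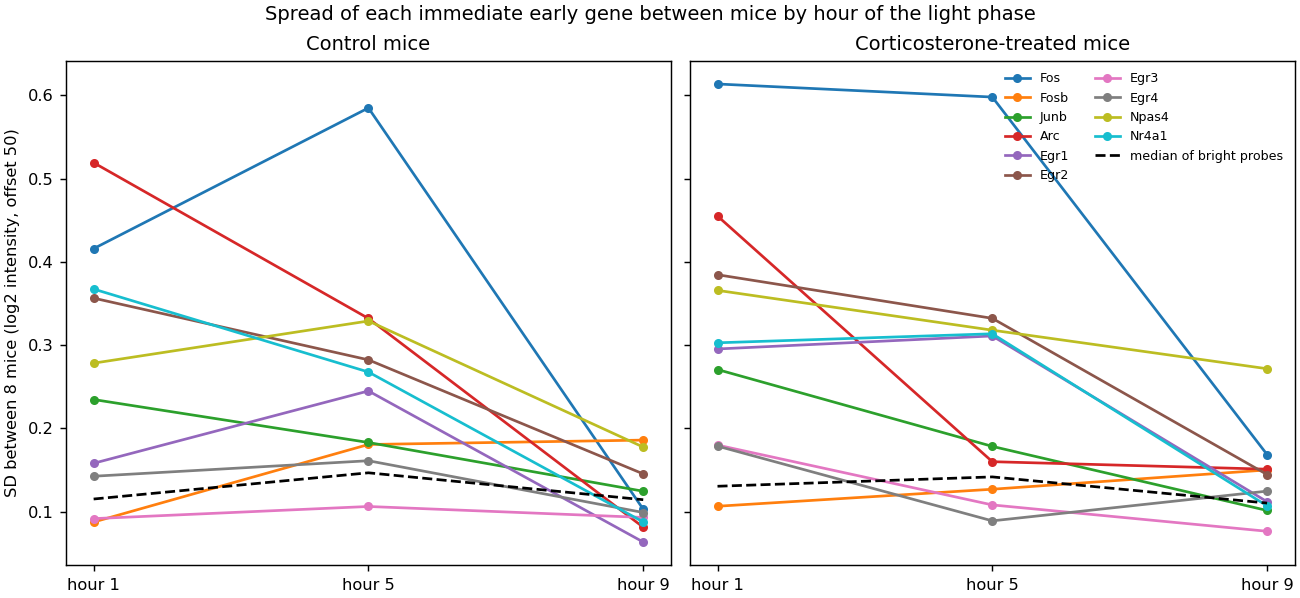
SD between the 8 mice of a group for each gene by hour, with the median SD of all probes of an intensity of 50 or more (dashed).

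The largest ratio was that of *Arc* in control mice, with an SD of 0.519 in the first and 0.0812 in the ninth hour (exact permutation p = 0.0073). The SD of *Nr4a1* dropped there from 0.367 to 0.0875 (exact permutation p = 0.0025), and that of *Fos* from 0.416 to 0.103 (exact permutation p = 0.0031). That of *Egr1* went from 0.158 to 0.0634 (exact permutation p = 0.0387). In treated mice the SD of *Fos* was 0.614 in the first and 0.168 in the ninth hour (exact permutation p = 3.1e-04). There, 7 of the 10 genes had an exact p under 0.05 (*Fos*, *Junb*, *Arc*, *Egr1*, *Egr2*, *Egr3* and *Nr4a1*), against the 4 named above in control mice. Each of these p values is that of a single gene, over 12870 splits of 16 mice, and is not adjusted. Over the 31982 probes with an intensity of 50 or more and no missing value, the exact p was under 0.05 for 9.3% in control and 8.05% in treated mice. In the limma test of absolute deviations over all probes, 0 genes were called in control mice (3 at an unadjusted p under 0.05, lowest adjusted p 0.594; 0 and 6.52% of probes) and 0 in treated mice (7 at an unadjusted p under 0.05, lowest adjusted p 0.779; 0 and 5.89% of probes). *Nr4a1* in control mice had its lowest median in the fifth hour (3772), with an SD of 0.268. The spread of *Npas4* in treated mice (0.366 and 0.272) and *Egr4* (0.179 and 0.125) had an exact p above 0.05.

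The same mice tended to be high or low in several of these genes at once. Pearson correlations were computed for the 45 pairs of genes over the 24 mice of a treatment after the mean of each hour had been subtracted, with permutation within hours and p adjusted over the 45 pairs. In control mice 15 pairs were called and all 15 were positive, with a median r over the 45 pairs of 0.40. In treated mice 21 pairs were called, all positive, with a median r of 0.446, and 13 pairs were called in both treatments. The mice of both treatments share arrays, so these sets of pairs are not independent, and their overlap was not tested. By Spearman's rho the numbers of called pairs were 18 in control and 22 in treated mice. Without the 2 mice farthest from the median, the called pairs kept a positive r of at least 0.478 in control and 0.457 in treated mice. All 15 called pairs of control mice and 20 of the 21 of treated mice were positive within each of the 3 slides, and 12 of 15 and 20 of 21 within each of the 3 hours. In control mice of the ninth hour *Fos* with *Egr1* (r = -0.181), *Arc* with *Nr4a1* (-0.114) and *Fos* with *Junb* (-0.1) were negative.

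**Figure D4:**
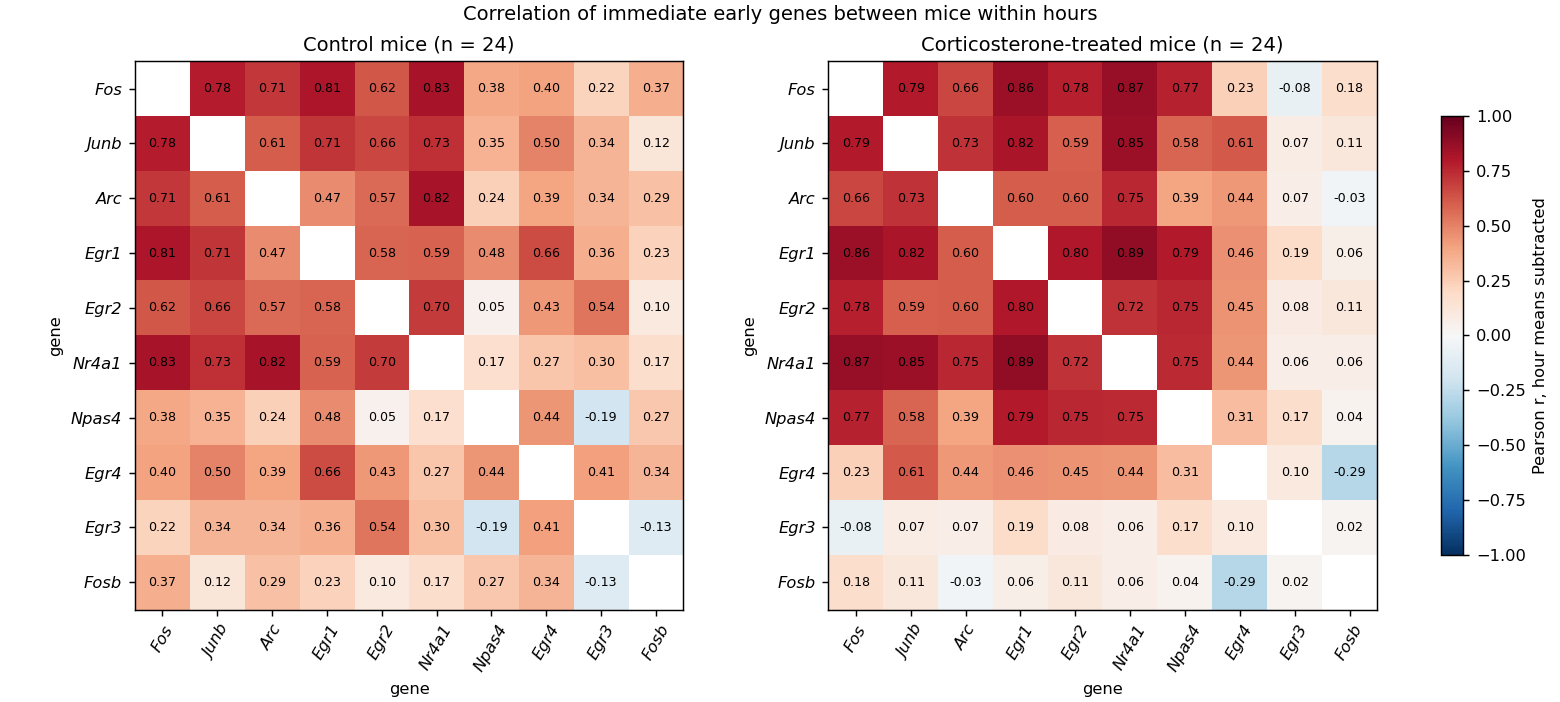
Pearson r of each pair of genes over 24 control mice and over 24 treated mice, with hour means subtracted.

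The closest pair in control mice was *Fos* with *Nr4a1* (r = 0.827, rho = 0.757, permutation p = 5e-05, adjusted p = 0.00105, 0.82 without the 2 farthest mice). *Arc* with *Nr4a1* had r = 0.824 (rho = 0.753, permutation p = 7e-05, adjusted p = 0.00105) and *Fos* with *Egr1* had r = 0.808 (rho = 0.668, permutation p = 0.00024, adjusted p = 0.00216). In treated mice *Egr1* with *Nr4a1* came first (r = 0.887, rho = 0.841, 0.85 without the 2 farthest mice, permutation p = 1e-05, the smallest that the permutations can give). There *Fos* with *Nr4a1* had r = 0.872 (rho = 0.846, permutation p = 3e-05, adjusted p = 2.2e-04). A group of 6 genes, *Fos*, *Junb*, *Arc*, *Egr1*, *Egr2* and *Nr4a1*, put together after the values had been seen, held 13 of the 15 pairs called in control and 15 of the 21 in treated mice, and the printed promoters of *Fos*, *Junb*, *Egr2* and *Nr4a1* belong to it. *Fosb* had 0 called partners of 9 in either treatment by this test (median r 0.228 and 0.06). *Egr3* had 1 and 0, and *Egr4* had 1 and 1. *Npas4* had 0 called partners in control mice and 5 in treated mice (median r 0.272 and 0.58), a difference that was not tested.

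In control mice the median r over the 45 pairs was 0.714 among the 8 mice of the first, 0.424 in the fifth and 0.074 in the ninth hour, and in treated mice it was 0.619, 0.197 and 0.465. These values rest on 8 mice each, and their difference was not tested. In an alternative the mean of each slide within each hour was subtracted, and permutation was within these cells of 2 to 4 mice of a treatment. That allows fewer permutations and makes a weaker test. In it 14 pairs were called in control mice and 8 in treated mice. The group of 6 genes held 12 of these 14 but only 4 of these 8, while *Npas4* was in the other 4 and *Arc* in 0 of the 8, and of the 6 pairs among *Fos*, *Junb*, *Egr2* and *Nr4a1* 0 were called in treated mice (lowest adjusted p 0.057), where r was between 0.41 and 0.822. Over the 31982 probes with an intensity of 50 or more and no missing value, the median r of a probe with a gene of the 10 was -0.0351 in control and -0.0319 in treated mice. There, r was 0.5 or more in 3.27 and 3.74% of cases, against 16 and 21 of the 45 pairs.

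The 2 mice that shared an array also resembled each other. For each gene, the deviation of the control mouse from its hour's mean was set against that of the treated mouse over the 24 arrays, with p from permutation within hours adjusted over the 10 genes. The correlation was called for 6 genes: *Junb* (r = 0.701, rho = 0.635, adjusted p = 0.0067), *Fos* (r = 0.682, rho = 0.518, adjusted p = 0.013), *Npas4* (r = 0.662, rho = 0.598, adjusted p = 0.0067), *Fosb* (r = 0.628, rho = 0.511, adjusted p = 0.00927), *Egr1* (r = 0.581, rho = 0.467, adjusted p = 0.0298) and *Nr4a1* (r = 0.573, rho = 0.67, adjusted p = 0.0298). Without the 2 farthest arrays r was 0.476, 0.538, 0.593, 0.598, 0.371 and 0.504 in the same order. *Arc* (r = 0.481), *Egr3* (0.415), *Egr2* (0.299) and *Egr4* (0.209) were not called. By Spearman's rho 5 genes were called, *Junb*, *Npas4* and *Nr4a1* (adjusted p = 0.014 each) and *Fosb* and *Egr3* (0.0359 each), but not *Fos* (0.0544) or *Egr1* (0.0726). The median over the 10 genes was 0.577, against 0.279 over all probes without missing values and 0.39 over those with an intensity of 50 or more. Channels of an array share a hybridization. Control and treated mice were killed in alternating order, but the labels do not say whether the 2 mice of an array followed each other. A shared spot and any shared moment cannot be told apart. Correlations within single slides are given below, and the part of a shared slide was not tested. Control mice were brothers of treated mice, but the labels do not name litters, so that litter could not be taken into account here or in the pairs of genes.

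**Figure D5:**
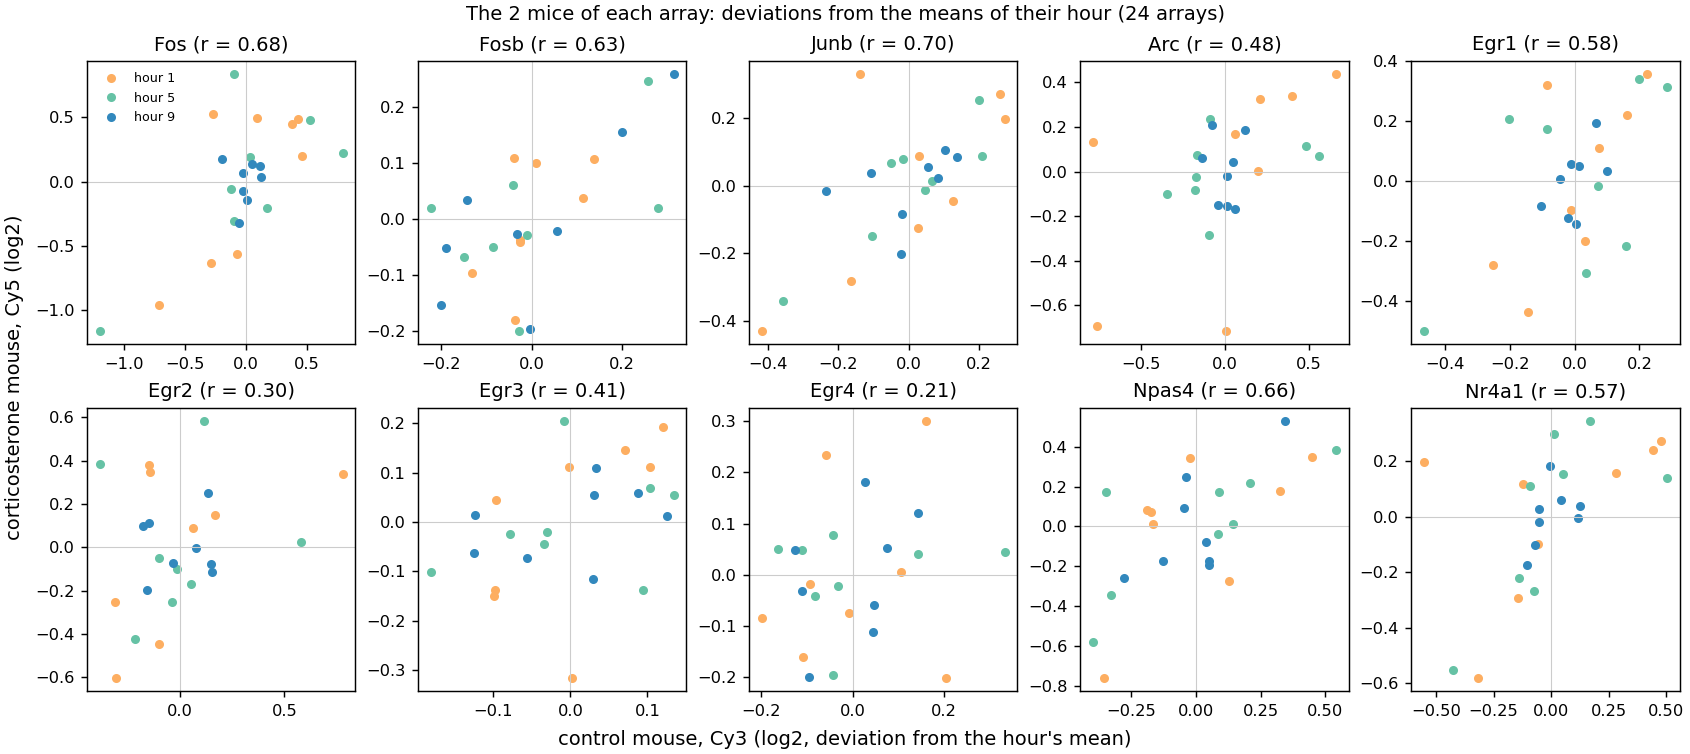
Deviation of the treated mouse (Cy5) against that of the control mouse (Cy3) from their hour's means on each of the 24 arrays, for each gene.

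Within slides the picture was uneven: r of *Fos* was 0.853, 0.18 and 0.844 in slides 1, 2 and 3, that of *Junb* 0.791, 0.206 and 0.919, and that of *Npas4* 0.777, 0.572 and 0.626. For *Fosb* it was 0.769, 0.31 and -0.457. An example is replicate 7 of the fifth hour, on slide 3, where *Fos* was 83.5 in the control and 80.9 in the treated mouse, the lowest value of either treatment. The next lowest mice of that hour were at 232 in control and at 189 in treated mice. That array also stood apart in quality, with 276 outlier spots (80 to 198 on the others) and the lowest share of Cy5 spots well above background, 64%. Without it, an alternative added after the data had been seen, 3 of the 10 genes were called: *Fosb* (r = 0.621, adjusted p = 0.0227), *Npas4* (r = 0.607, adjusted p = 0.0227) and *Junb* (r = 0.635, adjusted p = 0.0346), while *Fos* (r = 0.514, adjusted p = 0.113), *Nr4a1* (0.482, adjusted p = 0.113) and *Egr1* (0.425, adjusted p = 0.124) were not.

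The probes most like the genes as a group were ranked by the lower of 2 correlations with the mean of the 10 standardized genes, in 24 control and in 24 treated mice, among 31970 probes. The 10 named genes at the top were *Pfkfb3* (r = 0.792 and 0.693), *Ss18* (0.663 and 0.794), *Ptcd1* (0.674 and 0.659), *Khdc3* (0.711 and 0.65), *Herpud1* (0.638 and 0.72), *Rngtt* (0.635 and 0.693), *Scrt1* (0.638 and 0.626), *Syncrip* (0.624 and 0.642), *Stx6* (0.623 and 0.655) and *Bloc1s2* (0.689 and 0.623). The median r over all ranked probes was -0.0488 and -0.049.

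Other genes of the same response were followed as lists. The median log2 fold change with corticosterone in the first hour was 0.10 over the immediate early genes, 0.10 over 27 further rapidly induced genes, -0.10 over 6 relatives, -0.01 over 24 effectors and 0.05 over 18 upstream factors. It was 0.66 over 12 glucocorticoid-responsive genes and 0.18 over 10 clock genes, against -0.00 over all probes. Of the 27 rapidly induced genes, 7 were called higher and 2 lower with corticosterone in the first, 5 and 2 in the fifth and 0 and 3 in the ninth hour, beside 17.5, 18.1 and 14% of all probes called in these hours. In the first hour the largest changes were *Maff* (1.62), *Trib1* (0.65), *Dusp5* (0.49), *Zfp36* (0.43), *Klf10* (-0.36) and *Klf2* (0.33). *Maff*, a small MAF factor, had an intensity of 32.2 to 59.2 (median 51.4, n = 8) in control and of 93.1 to 252 (median 149, n = 8) in treated mice, groups that do not overlap. Over the day, in treated mice, 1 gene of this list was called higher and 8 lower in the ninth than in the first hour, among them *Maff* (-1.19), *Trib1* (-0.59), *Dusp5* (-0.44), *Dusp1* (-0.42) and *Zfp36* (-0.39), with *Klf4* higher (0.43), beside 4.02% of all probes. In control mice 1 was called higher (*Klf4*, 0.49) and 0 lower by limma, beside 0.537%. The effect of corticosterone itself changed from the first to the ninth hour in 6 genes of the list, all downwards: *Maff* (-1.18), *Klf2* (-0.75), *Trib1* (-0.70), *Zfp36* (-0.46), *Per1* (-0.31) and *Gadd45g* (-0.28), beside 0.827% of all probes. None of the 10 immediate early genes was called in that test.

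The 6 relatives of *Fos*, *Junb* and *Nr4a1* (*Fosl1*, *Fosl2*, *Jun*, *Jund*, *Nr4a2* and *Nr4a3*) were called in 2 cases in the first, 1 in the fifth and 0 in the ninth hour, beside 17.5, 18.1 and 14% of all probes. *Nr4a3* was called higher with corticosterone in the first (0.22) and the fifth hour (0.23) and *Nr4a2* lower in the first (-0.21). Of 18 upstream factors and EGR corepressors measured, 5 were called higher and 3 lower in the first, 3 and 2 in the fifth and 3 and 2 in the ninth hour, beside the same 17.5, 18.1 and 14%. *Srf* encodes the factor that binds CArG boxes, and had intensities of 2756 to 3511 (median 3187, n = 8) in control and 3799 to 4629.8 (median 3957, n = 8) in treated mice of the first hour, with no overlap. Its log2 fold changes with corticosterone were 0.35, 0.35 and 0.29 (adjusted p = 5.8e-10, 1.5e-09 and 3.6e-07). *Nab2*, a corepressor of EGR factors, was higher by 0.29, 0.29 and 0.31 (adjusted p = 2.1e-05, 2.2e-05 and 1.9e-05). Also called in the first hour were *Rps6ka5* (-0.35), *Elk3* (-0.35), *Mrtfb* (0.22) and *Mrtfa* (0.15).

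Of 24 effector genes regulated by activity, 3 were called higher and 4 lower with corticosterone in the first hour, and 4 and 4 in both the fifth and the ninth hour, where 17.5, 18.1 and 14% of all probes were called. The largest changes of the first hour were *Cdkn1a* (2.06), *Syt4* (-0.36), *Nfil3* (0.36), *Scg2* (-0.20), *Rheb* (-0.18) and *Spred1* (0.15). In control mice 1 of the 24, *Nfil3*, was called lower in the ninth than in the first hour (-0.33), and in treated mice 2 were higher and 3 lower (0.537 and 4.02% of all probes). The brightest *Homer1* probe was called in none of the 12 comparisons, but its dimmest probe (A_55_P2122789) was lower with corticosterone in each hour (-0.41, -0.42 and -0.23; adjusted p = 2.2e-05, 2.1e-05 and 0.0183). Its second probe (A_52_P151211) was lower in the first hour only (-0.13, adjusted p = 0.0441). These probes were looked at after the data had been seen.

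As a check on the treatment, 11 of 12 genes known to respond to glucocorticoids were called higher in the first hour, among them *Plin4* (3.47), *Cdkn1a* (2.06), *Tsc22d3* (0.93), *Nfkbia* (0.76) and *Sgk1* (0.71). In the fifth hour 6 were higher and 0 lower, and in the ninth 2 were higher and 6 lower, beside 17.5, 18.1 and 14% of all probes called. All 12 were called lower in the ninth than in the first hour in treated mice, while limma called 0 of them in control mice (4.02 and 0.537% of all probes). As a check on the hour, 3 of 10 clock genes were called higher in the ninth than in the first hour in control mice and 0 lower, and 3 higher and 2 lower in treated mice, the lower ones being *Per2* (-0.40) and *Per1* (-0.19), beside the same shares. Both lists were chosen with earlier results of these data known, so neither is an independent check.

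The markers of cell types were followed in the same comparisons, where 0.537% of all probes in control and 4.02% in treated mice were called between the first hour and the ninth, and 17.5, 18.1 and 14% with corticosterone in the 3 hours. In control mice 1 of the 46 markers measured was called when the ninth hour was compared with the first (*Cldn5*, -0.34), and in treated mice 5 were called (*Neurod6*, 0.25; *Spink8*, -0.35; *Dsp*, -0.52; *Cx3cr1*, 0.39; *Cldn5*, 0.27). With corticosterone, 2 region markers were higher in the first hour (*Spink8* by 0.61, *Dsp* by 0.33) and 1 lower (*Grik4*, -0.13), 1 was higher in the fifth (*Spink8*, 0.50) and 2 in the ninth (*Spink8*, 0.37; *C1ql2*, 0.29). Of the 6 general neuron markers limma called 0 in the first hour. In the fifth hour 3 of these 6 were called higher and in the ninth 2, among them *Rbfox3* (0.14 and 0.11) and *Gad2* (0.21 and 0.17). The summed intensity of the 6 neuron markers, with *Snap25* the brightest, had medians of 131963, 127574 and 133936 in control and of 131808, 136183 and 136757 in treated mice in the 3 hours (n = 8 each). Markers of other cells were called with corticosterone too. In the first hour 1 astrocyte marker of 5 was called higher and 1 lower, and in both later hours 1 and 2. The summed intensity of these 5, with *Slc1a3* the brightest, was 22210 to 25505 (median 23338, n = 8) in control and 25523 to 27338 (median 26218, n = 8) in treated mice of the first hour, with no overlap. The medians of the sum were 24912 and 25840 in the fifth and 23840 and 24380 in the ninth. The median log2 fold change over the 5 astrocyte markers was 0.04, -0.06 and -0.06 in the 3 hours, so the sum does not stand for the list. Of 5 vessel markers 1 was called higher and 2 lower in the first and 1 and 1 in both later hours, with *Flt1*, the brightest, lower in each (-0.61, -0.47 and -0.37). Medians of their sum were 14139, 15100 and 13837 in control and 11566, 13375 and 13237 in treated mice. The median log2 fold change over the 5 vessel markers was -0.06, 0.01 and 0.15 in turn. Of 5 microglia markers 2 were lower in the first and 1 in both later hours. Of 5 thalamus and cortex markers 1 was called, higher, in the first hour and 0 later, and limma called 0 of 5 choroid plexus and 0 of 2 blood markers in any hour. Their part in the results for the immediate early genes was not tested.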

How the data were processed

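Median spot intensities, deposited per array without normalization by the authors as scanner files of Agilent Feature Extraction, were measured in both channels of 24 arrays (48 mice, 1 per channel, 8 per group). The deposited files also hold marks for outlier spots and for signal well above background. A series table deposited by the authors gives, for each probe and array, the log2 ratio of the Cy5 to the Cy3 channel; its column medians lie between 0.00239 and 0.00889, and its lowest correlation with the ratios computed here is 0.988.

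The intensities were read in R 4.3.3 (data.table version 1.17.8, jsonlite 2.0.0) and fitted with limma 3.58.1 and statmod 1.5.0. Normexp subtracted the background. P values, SDs and correlations used an offset of 50, and fold changes, standard errors and printed intensities an offset of 0. Loess within arrays, quantile normalization between arrays and averaging over copies of a probe followed. The separate channel model had 6 groups and an intraspot correlation of 0.279, and moderated variances had 4.89 prior degrees of freedom. Limma's p values of each of 12 comparisons were adjusted over 56605 probes (Benjamini and Hochberg), with calls at an adjusted p under 0.05. The 77 probes with a missing value on 1 array, none of them a probe of the genes described, were fitted one by one.

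Probes were matched to symbols by transcript identifier (34566 of 56605 probes), and a gene is represented by its brightest probe. The genes and the lists were chosen with earlier results of these data known. The lists were other Fos, Jun and Nr4a family members, other rapidly induced activity genes, activity-regulated effector genes, upstream factors with EGR corepressors (*Nab1* was not matched), a glucocorticoid response check and a clock check; *Per1* and *Cdkn1a* stand in more than 1 list. Marker lists covered 9 groups of cells or regions (*Rorb* and *Hbb-bs* were not matched). Results for oligodendrocyte markers are not reported here. All 10 immediate early genes are named, and of each list up to 6 called genes with the largest absolute log2 fold change; *Maff*, *Srf* and *Nab2* were singled out for their values after these had been seen.

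Spread was tested between the first and the ninth hour with limma on absolute deviations from the group mean and by exact permutation of single genes. Pair and within-array correlations used up to 100000 permutations within hours, in Python 3.11.15 (numpy 2.4.6, scipy 1.17.1, pandas 2.3.3; figures with matplotlib 3.10.9). Promoters came from the RefSeq table for build GRCm38.p6. Normalization and the motif search were not tested on simulated data, but the functions for channel fits, spread and pair correlations were. The limma test of spread recovered directions and the null rate there, but called no probe after adjustment even where SDs differed several-fold, so its counts of 0 say little.

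Alternatives were an offset of 0 for p, fold changes with an offset of 50, no background correction, median centring, Aquantile, the processed signals, 2 filters on dim probes, log ratio fits, the channels of 1 treatment alone, slide as a block, leaving out each slide and each array, the series table's log2 ratios, outlier spots kept and all probes of a gene. For spread they were an offset of 0, deviations from the median, slide means within each hour subtracted and each array left out. For pairs they were an offset of 0, slide means within each hour subtracted and the processed signals. For correlation within arrays and for the ranking of probes there was an offset of 0 only. Added after seeing the data, the array with the most outlier spots was left out for pairs and within arrays.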

Additional observations from a re-analysis of the deposited data

Results flagged for a closer look

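In 3 of 60 groups of 8 mice (10 genes, 6 groups), a single mouse stood apart by Dixon's criterion at the 95% level, which chance alone gives in about 1 in 20 groups. The criterion, a gap over a range, was computed on log2 intensities with an offset of 50, while the intensities printed here have no offset and are not logs. *Egr2* in control mice of the first hour was 428 in replicate 2, on slide 1, against 259 in the next mouse and a median of 202 (gap over range 0.561). *Egr4* in corticosterone-treated mice of the fifth hour was 3522 in replicate 2, on slide 1, against 3924 in the next mouse and a median of 4168 (gap over range 0.564). *Fos* in control mice of the fifth hour was 83.5 in replicate 7, on slide 3, against 232 in the next mouse and a median of 251 (gap over range 0.539). On the printed intensities the ratio is 0.655, 0.538 and 0.366 in turn, and the *Fos* mouse does not pass the criterion there. The treated mouse on that array, at 80.9, was also the lowest of its group for *Fos*, and that array had the most outlier spots of the 24 (276, against 80 to 198) and the lowest share of Cy5 spots well above background (64%). No effect of corticosterone on these 10 genes was called as different between hours.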

How the results depend on the processing

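The numbers of genes called depended on the slides and on single arrays. Without slide 1, 1 gene instead of 2 was called for corticosterone against control in the fifth hour, 0 instead of 3 in the ninth, 0 instead of 2 in control mice from the first to the ninth, and in treated mice 0 instead of 2 from the first to the fifth and 1 instead of 3 from the first to the ninth. Without slide 2 the numbers were 1 instead of 3 in the first hour, 1 in the ninth, 0 in control mice, and 0 and 1 in treated mice. Without slide 3 they were 1 in the fifth hour, 2 in the ninth (*Npas4* was lost), 1 in control mice, and 0 between the first and the fifth hour in treated mice; in the first hour 3 were called, but *Egr4* in place of *Arc*. Slides 1, 2 and 3 hold 8 arrays each, so that these fits also have fewer mice, and the cause was not tested.

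With the log2 ratios of the series table, 5 genes were called in the first and 4 in the fifth hour. In control mice, from the first hour to the ninth, 1 gene was called with an offset of 0 for p, with the processed signals and with that treatment's channels alone. Between the first and the fifth hour in treated mice, 1 gene was called with an offset of 0 for p, without background correction, with median centring, Aquantile, processed signals, outlier spots kept and the treatment's channels alone. With the mean of each slide within each hour subtracted, a weaker test, 8 instead of 21 pairs of genes were called in treated mice. The cause was not tested. Without the array with the most outlier spots, an alternative chosen after seeing the data, 3 genes instead of 6 were called within arrays, and 18 and 22 pairs in control and treated mice.

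Leaving out each array in turn gave 2 to 4 genes in the first, 1 to 3 in the fifth and 1 to 3 in the ninth hour. From the first hour to the ninth it gave 0 to 2 in control and 3 to 3 in treated mice, and between the first and the fifth hour 0 to 2 in treated mice. In the other comparisons it gave 0 to 0. For spread it also gave 0 to 0, which says nothing on stability, as that test called no probe on simulated data either. Of the single calls, those of *Junb* in the first and the fifth hour (39 of 39 alternatives each) and of *Arc* from the first hour to the ninth in treated mice (38 of 38) were kept throughout, and that of *Nr4a1* between the first and the fifth hour was kept in 9 of 38. In no alternative did a called gene change direction.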

Other observations

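The treated mouse always carried Cy5, so values with corticosterone hold the dye effect of each probe. Control and treated mice were killed in alternating order, but the labels give no times within an hour, and the part of handling, waking and sleep in the spread between mice was not tested. Slides 1, 2 and 3 hold 2, 3 and 3 arrays of the first hour and 4, 2 and 2 of the ninth, so that a slide left out removes few mice of some groups and more of others. Protein and neuronal activity were not measured.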
